A study of Triticum aestivum with 16 samples.

Results

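In flag leaves of 8 wheat lines, 4 of 61115 probe sets followed the level of a fructosyltransferase probe set from line to line, and none of the 4 is paired with a gene in the platform annotation. A probe set is a group of short probes on the array that read 1 transcript or a family of like transcripts. The probe set followed, called the reference here, is the one of LOC542773 whose name ends in _a_at, an ending for probes shared by alternative transcripts of a gene. The annotation gives LOC542773, LOC542774 and LOC780687 as locus numbers only, and the name fructosyltransferase for them comes from the description under which the transcripts were chosen. Members had a mean over the 16 arrays of 5 or more on the log2 scale, a range of the 8 line means of 1 or more, and a Pearson r of 0.9 or more with the reference over the 16 arrays. The mean and range limits left 2169 probe sets, of which 8 reached the limit on r. The reference and 3 other probe sets of LOC542773, LOC542774 and LOC780687 were left out by the rule, which leaves Ta.2789.2.S1_x_at, Ta.2789.2.S1_at, TaAffx.124266.1.S1_at and TaAffx.10980.1.S1_at. The 4 were thus selected on their measured values over all 16 arrays, so their levels and correlations are given as descriptions and carry no test of likeness.

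The lines are recombinant inbred lines of bread wheat (Triticum aestivum) with Seri M82 and Babax as parents, named SB15, SB33, SB53, SB80, SB138, SB146, SB165 and SB189. Flag leaves, the last leaves below the ear, were taken 6 to 8 days after anthesis from plants of an irrigated field in 2007, with 2 field replicates of every line and no other treatment. The labels call the replicates biological and state no carbohydrate level for any line. Plants per sample are not given in the labels.

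Fructans are soluble chains of fructose that wheat builds from sucrose in the vacuole. Fructosyltransferases move fructose units from sucrose onto the growing chain, and fructan exohydrolases release fructose from its end. Leaves make fructan when sucrose accumulates, and the polymer is a store of water soluble carbohydrate that can later be moved to the grain. The series concerns differences between genotypes in this metabolism.

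The deposited values are log2 signals with a floor at 2.249, and the lowest value of any member on any array was 6.95, so no member was near the floor. Over the 19740 probe sets with a mean of 5 or more, r was 0.989 to 0.995 between the 2 arrays of a line and 0.957 to 0.984 across lines. In the tissue check, a leaf list by name pattern matched no annotated name, and a list by gene symbol, chosen after the values were seen, matched 33 probe sets of 4 genes. PsbO, PsbP, petC and rbcL, which encode parts of photosystem II, the cytochrome b6f complex and Rubisco, were among them, and 13 of the 33 had a mean of 5 or more, up to 16.57. All 3 probe sets of the developing grain list lay at the floor, with means of at most 2.28. Both probe sets of the anther and pollen list, which read a profilin, had means of 13.37 and 14.31 and correlated with the reference at 0.228 and 0.255, and the root list had no annotated probe set.

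The reference read high in SB189, SB80 and SB33 and low in SB15, SB146 and SB165. Its values for field replicates 1 and 2 were 10.65 and 11.59 in SB189, 10.68 and 11.15 in SB80, 10.24 and 10.50 in SB33, and 9.28 and 10.03 in SB138. They were 8.94 and 8.95 in SB53, 8.14 and 8.46 in SB15, 8.11 and 8.28 in SB146, and 8.31 and 7.50 in SB165. Line means ran over 3.21 on the log2 scale, a 9.28-fold range. In this order the arrays of SB189 and SB80 overlapped, and so did those of SB15, SB146 and SB165, while every other neighbouring pair of lines stood apart. In a whole leaf, fewer cells holding a transcript and less of it per cell cannot be told apart.

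Ta.2789.2.S1_x_at and Ta.2789.2.S1_at carry the same transcript cluster number as the reference, with another subcluster number. On this array, names that start with Ta and share the first number come from 1 cluster of expressed sequences. The ending _x_at marks probe sets with probes that also match other transcripts, and which gene or copy the pair reads is not given in the annotation used here.

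Ta.2789.2.S1_x_at was the member with the highest r, at 0.996 (Spearman rho 0.988, 16 arrays). It read 11.35 and 11.93 in SB189, 11.14 and 11.41 in SB80, 10.73 and 10.98 in SB33, and 10.16 and 10.65 in SB138. It read 9.62 and 9.66 in SB53, 9.08 and 9.20 in SB15, 8.97 and 8.99 in SB146, and 9.07 and 8.42 in SB165. The order of the 8 lines was that of the reference, all 4 arrays of SB189 and SB80 lay above the other 12, and all 6 arrays of SB15, SB146 and SB165 lay below the other 10. SB189 averaged 11.64 ± 0.41 (SD, n = 2) and SB165 averaged 8.75 ± 0.46, a difference of 2.90 or 7.44-fold.

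Ta.2789.2.S1_at followed the reference at r = 0.994 (rho 0.997). It read 12.88 and 13.48 in SB189, 12.76 and 13.03 in SB80, 12.53 and 12.55 in SB33, and 11.85 and 12.51 in SB138. It read 11.43 and 11.49 in SB53, 10.82 and 10.995 in SB15, 10.60 and 10.82 in SB146, and 10.84 and 10.36 in SB165. Its line order was also that of the reference, with the same 4 arrays at the top and the same 6 at the bottom. Line means ran over 2.58, from 13.18 ± 0.42 (SD, n = 2) in SB189 to 10.60 ± 0.34 in SB165.

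TaAffx.124266.1.S1_at followed at r = 0.922 (rho 0.929) and spread over a smaller range. It read 8.09 and 8.25 in SB189, 8.17 and 7.86 in SB80, 7.63 and 8.08 in SB33, and 7.43 and 7.55 in SB138. It read 7.59 and 7.36 in SB53, 7.27 and 7.27 in SB146, 7.02 and 7.52 in SB15, and 7.14 and 6.95 in SB165. The arrays of SB80 overlapped those of SB189 and SB33, and those of SB138 and SB53 overlapped. SB15 overlapped SB138, SB53, SB146 and SB165, while SB189 stood just above SB33 and SB146 above SB165. The line means ran over 1.12, from 8.17 ± 0.12 (SD, n = 2) in SB189 to 7.04 ± 0.13 in SB165, a 2.18-fold range, and the widest spread within a line was that of SB15 (SD 0.35).

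TaAffx.10980.1.S1_at followed at r = 0.907 (rho 0.9), the member nearest to the limit. It read 10.53 and 10.75 in SB80, 10.55 and 10.53 in SB189, 10.20 and 10.07 in SB33, and 10.09 and 10.12 in SB138. It read 9.79 and 9.77 in SB53, 10.04 and 9.51 in SB15, 9.60 and 9.29 in SB165, and 9.57 and 9.31 in SB146. All 4 arrays of SB80 and SB189 lay above the other 12, but SB15 spanned from below SB53 to just below SB33 (SD 0.37, n = 2), so the lower lines overlapped. The line means ran over 1.197, from 10.64 ± 0.16 (SD, n = 2) in SB80 to 9.44 ± 0.19 in SB146, a 2.29-fold range. Unlike the other members it was highest in SB80 and lowest in SB146, by margins within the spread of the replicates: SB189 averaged 10.54 ± 0.011 and SB165 averaged 9.44 ± 0.22.

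**Figure D1:**
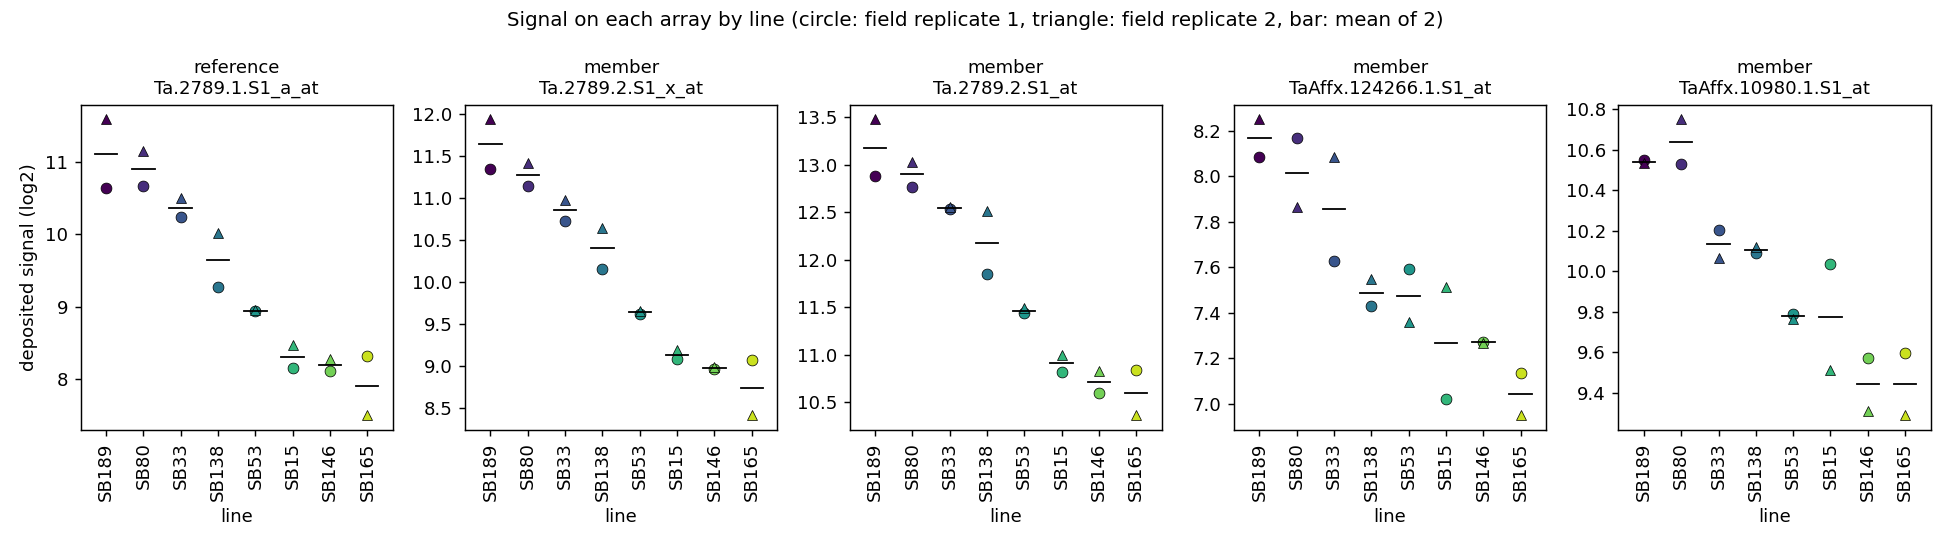
Deposited signal (log2) of the reference and the 4 members on each of the 16 arrays, with lines ordered by the mean of the reference. Circles are field replicate 1, triangles field replicate 2 and bars the mean of the 2. Each panel has its own vertical scale. Both members of the reference's cluster keep the order of the reference, while TaAffx.124266.1.S1_at and TaAffx.10980.1.S1_at overlap among the lower lines, above all in SB15.

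The rule fixed the correlation and a smallest range but not the slope on the reference. For each log2 unit of the reference, Ta.2789.2.S1_x_at changed by 0.86 ± 0.02 (least squares slope, SE, 16 arrays) and Ta.2789.2.S1_at by 0.79 ± 0.02. TaAffx.124266.1.S1_at changed by 0.30 ± 0.03 and TaAffx.10980.1.S1_at by 0.33 ± 0.04. These SEs treat the 16 arrays as independent, although each line gave 2 of them. The residual SD about the line was 0.10, 0.11, 0.17 and 0.20 in the same order. Between the lowest and the highest line the pair in the cluster spanned 2.90 and 2.58 against 3.21 for the reference, and the others 1.12 and 1.197. Slopes of different probe sets also depend on how strongly their probes respond. The line farthest from the fitted slope was SB138 in 3 of 4 members, with mean residuals of 0.12 and 0.19 for Ta.2789.2.S1_x_at and Ta.2789.2.S1_at and of -0.15 for TaAffx.124266.1.S1_at. For TaAffx.10980.1.S1_at it was SB80, with a residual of 0.17.

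**Figure D2:**
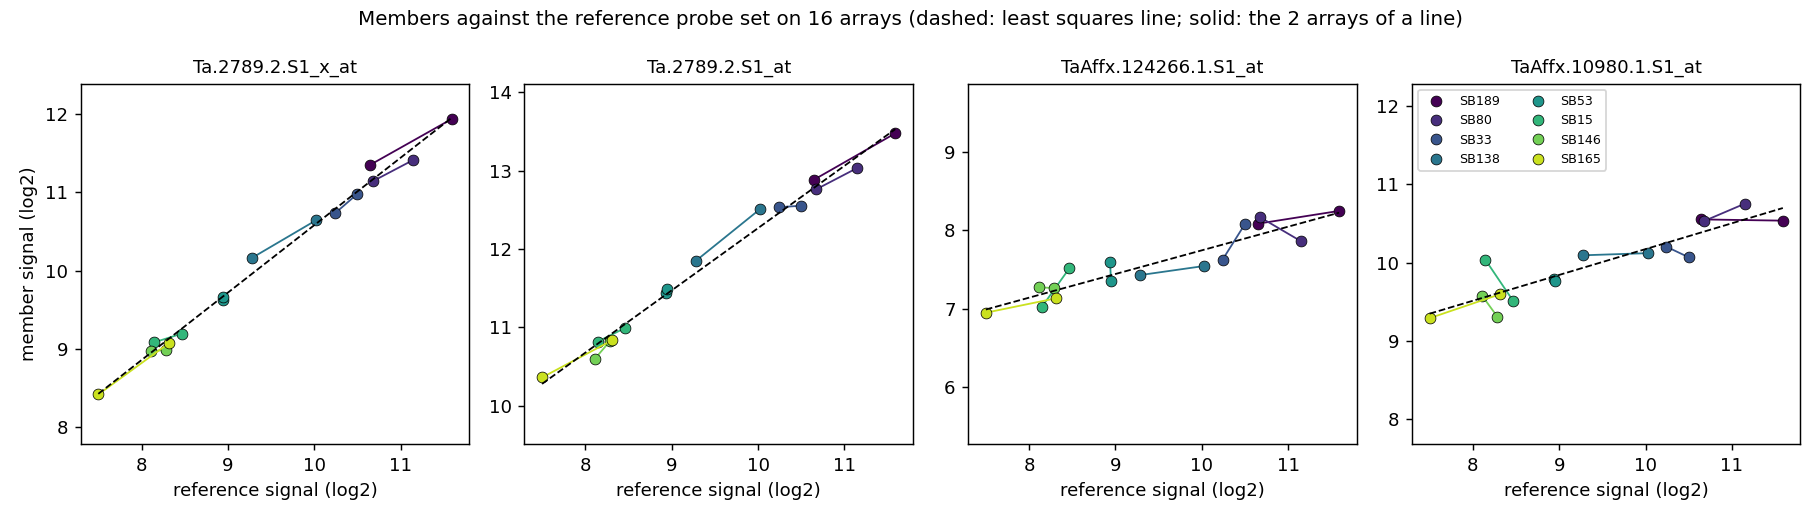
Signal of each member (log2) against that of the reference (log2) on 16 arrays, coloured by line. The vertical span is the same in each panel. Dashed lines are least squares fits with slopes of 0.86, 0.79, 0.30 and 0.33 from left to right, and solid lines join the 2 arrays of a line.

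The correlation over 16 arrays mixes differences between lines with differences between the 2 arrays of a line. Over the 8 line means, r with the reference was 0.998 for Ta.2789.2.S1_x_at, 0.996 for Ta.2789.2.S1_at, 0.980 for TaAffx.124266.1.S1_at and 0.965 for TaAffx.10980.1.S1_at. Over the 16 deviations from line means, r was 0.982, 0.968, 0.399 and 0.097 in the same order. Both probe sets of the cluster thus rose and dropped with the reference inside lines as well, and in all 8 lines the replicate that read higher for the reference read higher for them. For TaAffx.124266.1.S1_at this held in 5 of 8 lines and for TaAffx.10980.1.S1_at in 3 of 8, so their likeness to the reference was one of line means. The deviations share the arrays and have 1 free value per line, and no test was made of them.

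**Figure D3:**
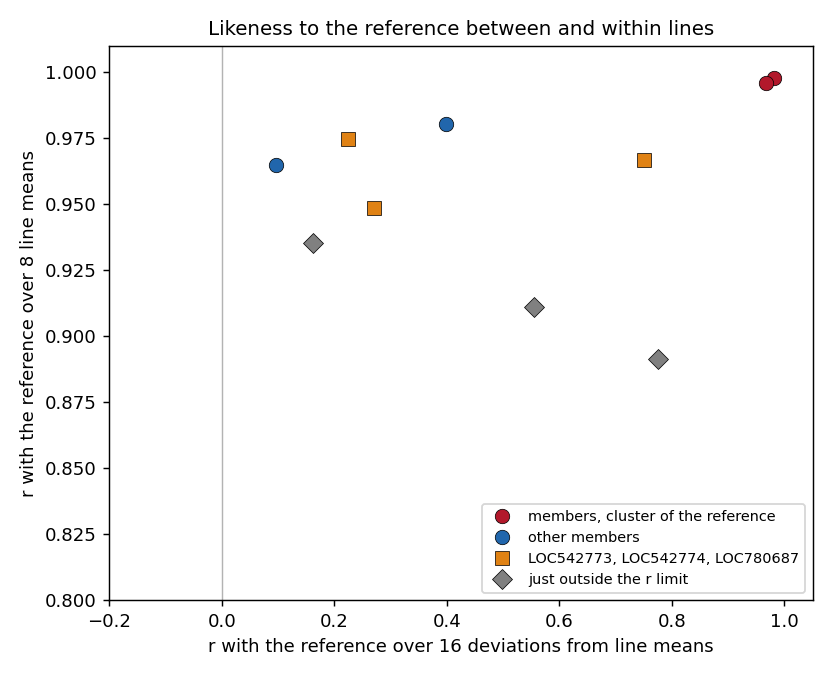
Likeness to the reference over 8 line means (vertical axis, Pearson r, shown from 0.8) and over 16 deviations from line means (horizontal axis, Pearson r). Red circles are the members of the reference's cluster and blue circles the other members. Orange squares are the probe sets of LOC542773, LOC542774 and LOC780687 left out by the rule that had a mean of 5 or more. Ta.3475.2.S1_at of LOC780687, with a mean of 3.01, is not drawn (r 0.839 between lines and -0.173 within). Grey diamonds are the 3 probe sets just outside the limit. All 4 members lie above 0.96 between lines, but within lines the blue circles lie at 0.399 and 0.097.

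TaAffx.124266.1.S1_at and TaAffx.10980.1.S1_at were less like each other than like the reference. The rule selected both for likeness to the reference only, which favours this order. Their r with each other over 16 arrays was 0.780, with 0.936 over line means and -0.555 over the deviations within lines. In SB15 the first read higher in field replicate 2, by 0.50, and the second was lower there, at -0.52. Neither has another probe set of its cluster number on the array, so no second probe set bears on its values. Sister probe sets often go together on this array: over 423 pairs that share a cluster number and pass the mean and range limits, the median r was 0.923, and 59.8% reached 0.9.

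The 3 other probe sets of the fructosyltransferase genes that reached the limit on r were highest in SB189 or SB80, and lowest in SB165 or SB146. The limit on r favours this, since the reference was itself highest in SB189 and lowest in SB165, so nothing is read from it. The second probe set of LOC542773 correlated with the reference at 0.95 and with Ta.2789.2.S1_x_at, Ta.2789.2.S1_at, TaAffx.124266.1.S1_at and TaAffx.10980.1.S1_at at 0.946, 0.956, 0.837 and 0.898. The probe set of LOC542774, with r = 0.919 to the reference, gave 0.934, 0.929, 0.843 and 0.934. The brighter probe set of LOC780687, with r = 0.912, gave 0.933, 0.929, 0.784 and 0.939. The dimmer one, Ta.3475.2.S1_at, missed the limits on mean and r, with a mean of 3.01 and an r of 0.739 with the reference. Over the deviations from line means its r with the reference was -0.173. It was highest in SB189 and lowest in SB15, and lay within 0.1 of the floor on 3 of 16 arrays.

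Among the 2169 probe sets within the mean and range limits, each member had a fructosyltransferase probe set or another member as its nearest. The 5 nearest of Ta.2789.2.S1_x_at and of Ta.2789.2.S1_at were each other, both probe sets of LOC542773, and those of LOC542774 and LOC780687. For TaAffx.10980.1.S1_at the nearest was LOC780687 (r = 0.939), then LOC542774 (0.934), and the reference came in place 5. Within lines, TaAffx.10980.1.S1_at also went with LOC780687 (r = 0.745 over the 16 deviations) and LOC542774 (0.661), which went with each other at 0.857. The largest replicate differences, replicate 2 minus 1, were in SB165 for LOC780687 (-1.83) and LOC542774 (-1.20), and in SB15 for TaAffx.10980.1.S1_at (-0.52). LOC780687 read 4.36 and 2.53 in SB165, against a floor at 2.249. How far these within-line values of r rest on single lines was not tested. For TaAffx.124266.1.S1_at the reference itself was nearest, both members of the cluster came next, and LOC542774 and LOC780687 came in places 8 and 28. Values of r with the reference were used by the rule and the others were not, but all cover the same 16 arrays. Genes that each follow the reference must resemble each other in part, so closeness among them was partly fixed by the rule.

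The rule also leaves out the fructan exohydrolases LOC780575 and LOC543441. None of their probe sets reached the limit on r over the 16 arrays. LOC780575, which RefSeq names 6-FEH, correlated with the reference at 0.864 on Ta.30950.1.A1_x_at and at 0.728 on Ta.9641.1.A1_a_at, and its remaining probe set lay within 0.1 of the floor on 15 of 16 arrays. Across the 4 members, r with Ta.30950.1.A1_x_at was 0.834, 0.828, 0.818 and 0.740. LOC543441, named 1-FEHw2, had an r of -0.346 with the reference and ranged over 0.37. Over the 16 deviations from line means, r with the reference was 0.866 for Ta.30950.1.A1_x_at, 0.632 for Ta.9641.1.A1_a_at and 0.763 for LOC543441. With 1 line left out, r of Ta.30950.1.A1_x_at with the reference ran from 0.826 (without SB80) to 0.908 (without SB138). Of the lists fixed by name pattern, fructan synthesis and hydrolysis matched the 4 probe sets of these exohydrolases, of which 2 had a line effect by the limma test below. That test called 3.5% of all probe sets and 42.3% of those within the mean and range limits. The defence list matched 6 probe sets, whose r with the reference ran from -0.265 to 0.172. Lists for invertase and sucrose, starch, sugar transport and signalling, transcription factors, respiration and glycolysis, and cell wall matched no annotated name, which does not show that such genes are absent from the array. No member could belong to a list, since none is paired with a gene.

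Among probe sets within the other limits, none had an r between 0.885 and 0.907. This gap is small, since r of TaAffx.10980.1.S1_at ran from 0.879 to 0.949 with 1 line left out. The nearest below the limit was Ta.14995.2.S1_a_at at 0.885, with 11.02 ± 0.50 (SD, n = 2) in SB189, 10.86 ± 0.034 in SB80 and 8.39 ± 0.23 in SB15. Ta.18362.1.A1_at followed at 0.883 with a range of 4.21, wider than that of any member, from 14.33 ± 0.06 in SB80 to 10.11 ± 0.60 in SB146. Its replicates lay farthest apart in SB165, at 12.17 and 9.44 (SD 1.93). Ta.1020.1.S1_a_at stood at 0.878 with a range of 4.18, from 10.06 ± 0.25 in SB80 to 5.88 ± 0.62 in SB165. Its replicates lay farthest apart in SB33, at 7.71 and 9.90 (SD 1.55). The nearest above the limit were TaAffx.10980.1.S1_at at 0.907, LOC780687 at 0.912 and LOC542774 at 0.919. These neighbours, like the members, were highest in SB80 or SB189, which a high r with the reference favours. Apart from TaAffx.10980.1.S1_at, which did so in SB80, they lay farthest from their own fitted slope in SB138 or SB53. The largest mean residuals were -0.61 in SB138 for Ta.14995.2.S1_a_at, -1.28 in SB53 for Ta.18362.1.A1_at and 1.03 in SB138 for Ta.1020.1.S1_a_at.

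A further 3 probe sets reached the limit on r but had too small a range. They were Ta.8827.1.S1_at (r = 0.932, range 0.66), Ta.10552.1.S1_at (0.9198, range 0.74) and Ta.21089.1.S1_at (0.910, range 0.44). None of the 3 is paired with a gene, and no probe set with a mean under 5 reached the limit on r.

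On the opposite side, 2 probe sets within the mean and range limits had an r of -0.9 or below, both without a gene. TaAffx.37371.1.A1_at (r = -0.918) was low in SB80 at 6.05 ± 0.076 (SD, n = 2) and in SB189 at 6.14 ± 0.34, and high in SB165 at 7.51 ± 0.063. Ta.25529.1.S1_at (r = -0.914) ran from 8.99 ± 0.65 in SB189 to 10.72 ± 0.12 in SB165. The distribution of r over the 2169 probe sets was skewed to negative values, with a median of -0.211 and quartiles of -0.526 and 0.223.

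**Figure D4:**
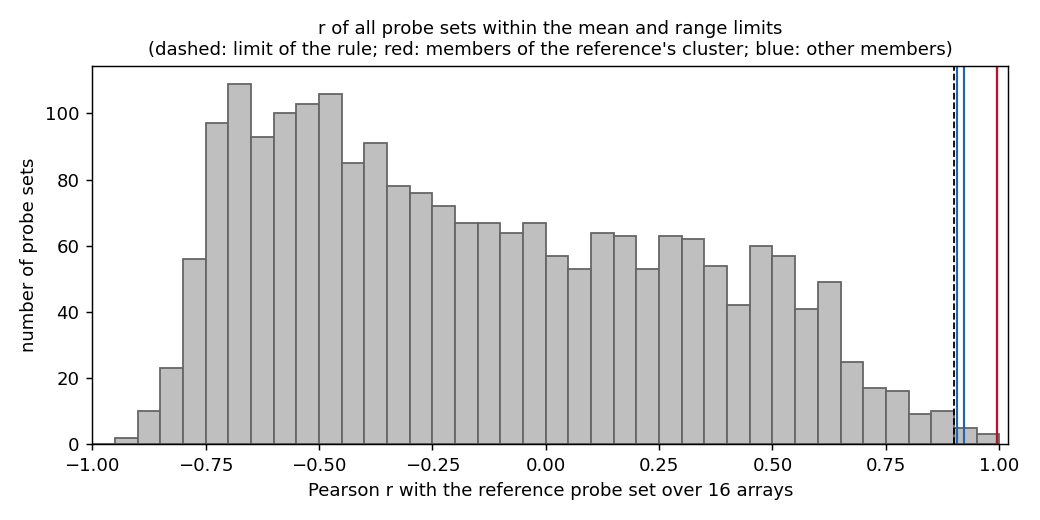
Number of probe sets (vertical axis) by Pearson r with the reference over 16 arrays (horizontal axis, steps of 0.05), for the 2169 probe sets within the mean and range limits. The dashed line is the limit of 0.9, red lines mark the members of the reference's cluster at 0.994 and 0.996, and blue lines mark TaAffx.10980.1.S1_at at 0.907 and TaAffx.124266.1.S1_at at 0.922. The bars right of the limit also hold the reference and the 3 probe sets left out by gene.

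Line effects were tested with limma's moderated F over the 8 lines, with p-values adjusted over all 61115 probe sets. Of the 4 members, 3 passed at 0.05, against 3.5% of all probe sets and 42.3% of those within the mean and range limits. The rule asked for a range between lines in these same arrays, so nothing is read from this count. The limma adjusted p was 0.00165 for Ta.2789.2.S1_x_at, 0.00278 for Ta.2789.2.S1_at and 0.0229 for TaAffx.10980.1.S1_at. TaAffx.124266.1.S1_at did not pass, with a limma adjusted p of 0.0826. It passed when only probe sets with a mean of 5 or more were tested (0.0107), after quantile normalization (0.0471), with array medians subtracted (0.0134) and without field replicate 2 of SB15 (0.0401). The line effect of TaAffx.10980.1.S1_at ended without SB80 (limma adjusted p = 0.0884), SB189 (0.0664) or SB146 (0.0512).

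A second limma contrast set field replicate 2 against 1 within lines, so that the line means do not enter it. By limma, 0 of 4 members differed between field replicates, against 0% of all probe sets, and the lowest limma adjusted p of a member was 0.847. Without adjustment, 0 of 4 lay under 0.05, against 4.26% of all. The mean differences, replicate 2 minus 1, were 0.14 for Ta.2789.2.S1_x_at, 0.19 for Ta.2789.2.S1_at, 0.06 for TaAffx.124266.1.S1_at and -0.13 for TaAffx.10980.1.S1_at. The reference was higher in replicate 2 in 7 of 8 lines, by 0.26 on average, with SB165 the exception.

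Which probe sets were members depended on the lines. Both members of the reference's cluster met the rule in all 41 alternative settings tried. TaAffx.124266.1.S1_at met it in 32 and in all 16 runs without 1 array, but not without SB165 or without SB189. It then missed the limits on both r and range, with an r of 0.898 and a range of 0.90 without SB165 and an r of 0.892 and a range of 0.97 without SB189. TaAffx.10980.1.S1_at met it in 29 settings and in 13 of 16 runs without 1 array. It failed without either array of SB80 and without field replicate 2 of SB165 (r = 0.889), and also without the line SB80, SB165 or SB189 (lowest r 0.879). Without the 2 arrays farthest from the median of the reference, which are field replicate 2 of SB189 and of SB80, r was 0.995, 0.993, 0.915 and 0.877 for the 4 members in the order of their r.

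Among the control RNAs, the poly-A spikes moved opposite to the reference. The poly-A spikes, bacterial control RNAs that are normally added to a sample before labelling and are read here by 36 probe sets, correlated with the reference at -0.780 over the 16 arrays (rho -0.768) and at -0.695 without its 2 farthest arrays. Their mean was lowest in SB80, at 8.82, and highest in SB165, at 10.12, and the arrays of 1 line differed by at most 0.47. With the 4 members the spikes correlated at -0.766, -0.755, -0.744 and -0.810. When the spike mean was regressed out of every probe set, an alternative chosen after seeing the data, r with the reference was 0.990 for Ta.2789.2.S1_x_at, 0.987 for Ta.2789.2.S1_at, 0.818 for TaAffx.124266.1.S1_at and 0.749 for TaAffx.10980.1.S1_at. The fructosyltransferase probe sets left out by the rule also came below 0.9 in that setting, at 0.868 for the second probe set of LOC542773, 0.821 for LOC542774 and 0.844 for LOC780687. The hybridisation spikes had an r of 0.289 with the reference and the 18S rRNA control -0.016. Differences between the 3 prime and middle probe sets of 7 control genes, a sign of RNA quality, had an r of -0.614 to -0.022 with the reference. With TaAffx.124266.1.S1_at they ran from -0.705 to 0.010, and with TaAffx.10980.1.S1_at from -0.469 to -0.022. The difference of 1 of these genes, CYP86, spanned only 0.031 over line means. The part of these controls in the likeness of TaAffx.124266.1.S1_at and TaAffx.10980.1.S1_at was not tested.

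**Figure D5:**
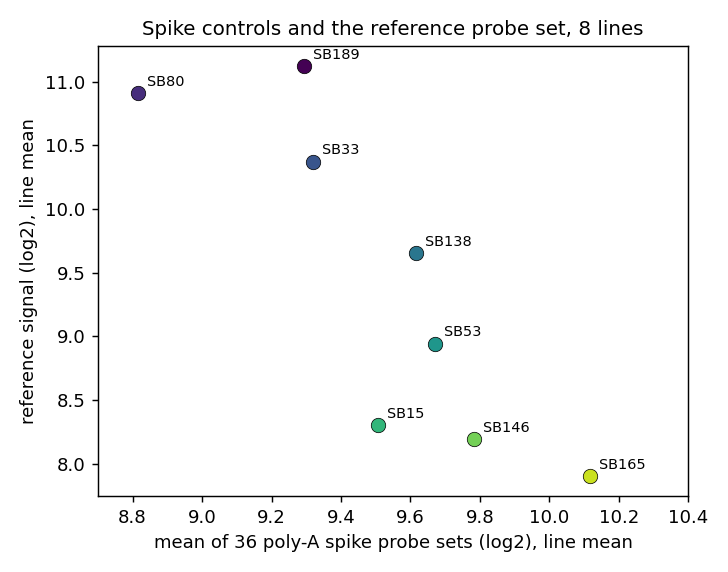
Line means of the reference (vertical axis, log2) against the mean of the poly-A spike probe sets (horizontal axis, log2) for the 8 lines. SB80 has the lowest spike level, at 8.82, with a high reference, and SB165 the highest, at 10.12, with the lowest reference.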

How the data were processed

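The authors deposited 1 table of log2 values for 16 arrays of biotin-labelled total RNA. RMA and GCRMA are named, per the submitters' processing notes, without versions or a statement of which made the table. The deposited log2 values were used as they are, and 175 AFFX and RPTR controls were left out. The platform annotation pairs 1273 probe sets with a gene and leaves 59842 unnamed, and 1272 of the pairs were found in the RefSeq table of IWGSC CS RefSeq v2.1. Likeness is Pearson r (numpy 2.4.6 in Python 3.11.15). Line and field replicate effects were fitted with limma 3.58.1 in R 4.3.3 (lmFit, eBayes, 8 residual and 0.39 prior degrees of freedom), with Benjamini-Hochberg adjustment over all probe sets. Named were all members, the probe sets of the 5 fructan genes, and those next to the limits on r and range or at r of -0.9 or below. Both steps were tested on simulated data. Members and lists were chosen with earlier results of these data known. Alternatives covered the limits, the reference, normalization, prior, weights, field replicate and each array and line left out. With 2 arrays in each line, the number of arrays limits what can be resolved. No sequences or coordinates were used.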

Additional observations from a re-analysis of the deposited data

How the results depend on the processing

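The number of members, 4 by the rule, was 13 at an r of 0.85, 2 at an r of 0.95, 2 with a range of 2 or more, 12 with r over the 8 line means, and 2 with the second probe set of LOC542773 as the reference. It was 9 without the line SB138, 7 without SB146 and 2 without SB165. It was 2 with the poly-A spike level regressed out, chosen after seeing the data. In the other 32 settings it lay within 1.5 times of 4, and without 1 array it ran from 3 to 6. With the replicate block, that is with field replicate means subtracted, it was 5, all 4 members included. The number of members with a line effect, 3, ran from 2 to 4 over 30 settings and was 3 with the replicate block in the fit. Without 1 array it ran from 3 to 4. Of 28 pairs of lines, 16 had replicate differences that correlated above 0.1, and the values ran from -0.21 to 0.375. The replicate differences were thus partly shared in some pairs of lines and not in others. Over the whole table the 2137 line effects became 1986 with the replicate block, 3430 with array medians subtracted, 1401 without SB80, and 2447 to 3818 without 1 array. The count moved by over 1.5 times without field replicate 1 of SB53 (3325), SB80 (3426), SB138 (3433) or SB189 (3818). Medians of the arrays over probe sets with a mean of 5 or more spanned 0.13. The number of members with a field replicate effect was 0 in all 4 limma fits. The cause of these changes was not tested beyond what each setting leaves out.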

Other observations

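With r taken only over the deviations from line means, a setting added after the values were seen, 6 probe sets met the rule's limits and 2 of them were members, both of the reference's cluster. In that setting TaAffx.124266.1.S1_at had an r of 0.399 and TaAffx.10980.1.S1_at of 0.097. With LOC542774 as the reference, 3 probe sets met the rule, all of them members, and the one not met was TaAffx.124266.1.S1_at. With LOC780687 as the reference, 4 met it, which were the same 3 and Ta.18362.1.A1_at, a probe set without a gene that ranged over 4.21 and was named because it lies just outside the limit.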
